A study of Equus caballus with 10 samples.

Results

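The genes described here encode interleukins and interleukin receptor chains outside the IL-1 and IL-6 families. They are IL7 and its receptor chain IL7R, IL15 and its receptor chain IL15RA, the IL-4 and IL-13 receptor chains IL4R, IL13RA1 and IL13RA2, the chains IL10RB and IL20RB of the IL-10 family, and the IL-17 receptor chain IL17RA. They were chosen by name, and all 10 are among the 29196 genes of the deposited expression table. Of these, 9 could be tested, and IL7R had no reads in any library.

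The cells were adult equine tenocytes, primary cells of the superficial digital flexor tendon, and came post-mortem from 5 horses, named donors 1 to 5 here. Both groups of 5 libraries, 1 from each donor, received PF-06650833, which inhibits the kinase IRAK-4, at 100 nM each day during 14 days of 3D culture in collagen gels. The first group received nothing else (the PF group). The second was also given IL-1β, 17 ng/ml, every 3 to 4 days (the IL-1β + PF group). The cells were at passage 6 and 7, and a library held RNA from several gels. The inhibitor was therefore present in both groups, and the comparison asks which genes differed with IL-1β while IRAK-4 was inhibited. The study's libraries without PF-06650833 were not analysed here.

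These receptors work by pairing chains. IL4R pairs with the common gamma chain (IL2RG) to bind IL-4, or with IL13RA1 to bind IL-4 or IL-13, and both pairs signal through JAK kinases to STAT6. IL13RA2 binds IL-13 tightly but has a short cytoplasmic tail and is known as a decoy receptor. IL-15 is held on the cell surface by IL15RA and shown to neighbouring cells that carry IL2RB and the common gamma chain, and IL-7 is bound by IL7R with the common gamma chain. IL-7 and IL-15 are made by stromal cells and support lymphocytes. IL10RB is the shared second chain of the receptors for IL-10, IL-22 and the lambda interferons, IL20RB is a chain of the receptors for IL-19, IL-20 and IL-24, and IL17RA is the shared chain of the IL-17 receptors.

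Expression is given as log2 values normalized between libraries by the authors, on which a gene with 0 reads has the value 3.43. Reads per gene were estimated by inverting this transformation and are approximate. The libraries held between 26672336 and 36093461 estimated reads on genes in the PF group, and between 26963764 and 33464155 in the IL-1β + PF group. Differential expression meant an adjusted p under 0.05 (limma, Benjamini-Hochberg over 17992 tested genes) together with a log2 fold change of 1 or more in either direction. Of 9 tendon markers in the table, COL1A1, COL1A2, DCN and LUM had between 21884 and 685480 estimated reads in every library, while TNMD had none. Of the tenocytes' own markers, SCX and MKX, transcription factors of the tendon lineage, were lower in 5 of 5 donors with IL-1β, with log2 fold changes of -3.24 (limma adjusted p = 6.11e-04) and -2.85 (limma adjusted p = 0.00554). COL1A1 and COL1A2 had log2 fold changes of -1.38 and -1.28, with limma adjusted p-values of 0.0682 and 0.0614, and of 0.0147 and 0.0169 with the donor as a replicate block. DCN went the other way, higher in 5 of 5 donors (log2 fold change 1.01, limma adjusted p = 0.268), and LUM was higher in 2 of 5 (0.33, limma adjusted p = 0.693). FMOD and THBS4 were lower in 4 of 5 donors each (-1.31 and -1.22, limma adjusted p = 0.277 and 0.437). Among leukocyte markers, CD3E and CD2 had 0 reads in all 10 libraries and PTPRC, carried by nearly all leukocytes, was above 0 in 1 library, with 3 reads. The 11 leukocyte markers counted summed to normalized counts of 7.80 to 1680 in the PF group and 4.70 to 1726 in the IL-1β + PF group, and the sum was higher with IL-1β in 4 of 5 donors. Where the sum was high most of it was CD14, which had 1468, 234, 0, 0 and 0 estimated reads in donors 1 to 5 in the PF group and 1374, 621, 0, 291 and 1050 in the IL-1β + PF group (log2 fold change 2.66, limma adjusted p = 0.340). Of 4 tested endothelial markers, 0 were differentially expressed. Some markers of other cells did differ between the groups. Of 2 adipocyte markers 1 was higher, ADIPOQ, with a log2 fold change of 3.11. Of 4 pericyte and muscle markers 3 were lower and 1 was not differentially expressed. DES, RGS5 and CSPG4 had log2 fold changes of -2.98, -1.96 and -1.84. CDH1, the 1 epithelial marker tested, had -2.22, while EPCAM and KRT5 had 0 reads in all 10 libraries. The part of these cell markers in the results that follow was not tested. In bulk RNA a change in the number of expressing cells cannot be told apart from a change in RNA per cell.

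Of the 9 tested genes, 5 were higher in the IL-1β + PF group (IL13RA2, IL15RA, IL15, IL7 and IL4R), 0 were lower at the minimum fold change, and 4 were not differentially expressed. Among all tested genes 6.68% were differentially expressed, 3.11% higher and 3.57% lower. With no minimum fold change, where 15.5% of all genes passed (7.57% higher and 7.89% lower), IL13RA1 was the 1 gene added, and it was lower. With the donor as a replicate block the same 5 genes were differentially expressed, against 8.26% of all tested genes, and with no minimum fold change the same 5 were the higher ones, against 10.9% of all tested genes. In 4 of the 9 genes, all of them higher, the groups did not overlap, as in 12.7% of all tested genes (6.29% higher and 6.41% lower). The 9 genes had a median log2 fold change of 1.11, against -0.01 over all tested genes. These genes were chosen with results of these data known, so their share is a description.

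**Figure D1:**
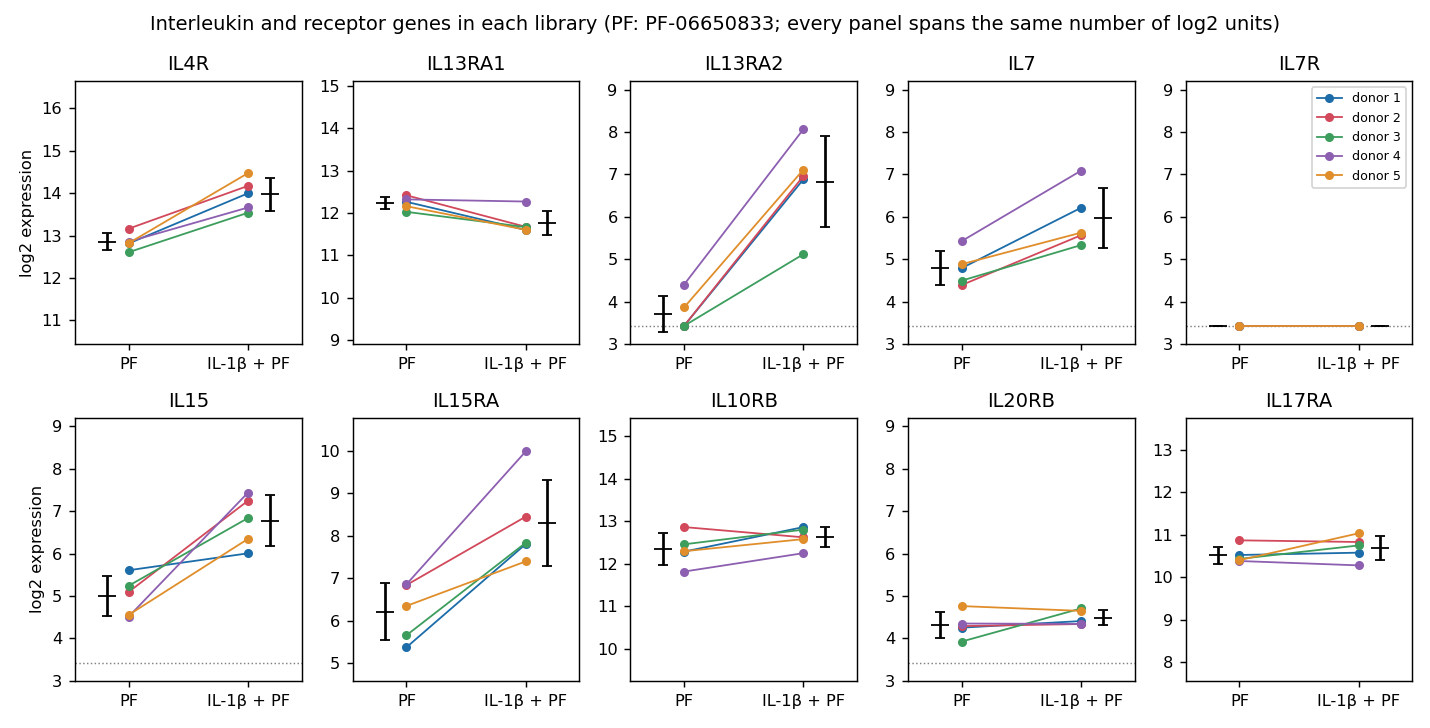
Log2 expression (vertical axis, each panel with its own range but the same span) of the 10 genes in each library, with the libraries of 1 donor joined by a line; black bars are the group mean and SD (n = 5), and the dotted line is the value of 0 reads, 3.43. IL4R, IL13RA2, IL15 and IL15RA rose in every donor with no overlap between groups, IL7 rose in every donor with overlapping groups, IL13RA1 was lower in every donor, and IL7R lay at 0 reads throughout.

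Of the IL-4 and IL-13 receptor chains, IL4R and IL13RA2 rose, and IL13RA1 had a log2 fold change of -0.47, under the minimum. IL4R, the chain common to both IL-4 receptors, stood at 12.82, 13.16, 12.61, 12.86 and 12.82 on the log2 scale in donors 1 to 5 in the PF group, and at 14.00, 14.17, 13.54, 13.66 and 14.47 in the IL-1β + PF group. Every library with IL-1β lay above every library without it, and donor 5 had the highest value. The mean rose from 12.85 ± 0.20 (SD, n = 5) to 13.97 ± 0.38 (SD, n = 5), a difference (log2 fold change) of 1.11 (standard error, SE, 0.18, limma adjusted p = 0.00232). In normalized counts this was 2.21-fold, from 7436 ± 1063 to 16455 ± 4369 (SD, n = 5). IL4R was read deeply, with at least 4765 estimated reads in each library. Its fold change lay just above the minimum, and it fell below it without the IL-1β library of donor 5 (0.99, adjusted p = 0.00402) or without both libraries of donor 5 (0.98, adjusted p = 0.0131). With the donor as a replicate block, IL4R was differentially expressed in 4 of the 5 fits that left out a donor. Its limma adjusted p was below 0.05 in all 5.

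IL13RA2, the decoy receptor for IL-13, had the largest change of the 9 genes. With PF-06650833 alone it was at the value of 0 reads in donors 1, 2 and 3, at 4.41 in donor 4 (5 estimated reads) and at 3.87 in donor 5 (1 read). With IL-1β plus PF-06650833 it was at 6.89, 6.96, 5.12, 8.07 and 7.11 in donors 1 to 5, which are 80, 92, 14, 175 and 102 estimated reads. The gene thus went from near absence to clear detection in all 5 donors, and with IL-1β it was lowest in donor 3 and highest in donor 4. It passed the filter on low values through the 5 libraries of the IL-1β + PF group, where it was high, together with 2 of the PF group. The log2 fold change was 3.12 (SE 0.46, limma adjusted p = 0.00156). Because the transformation compresses low values, the change was larger on the scale of log2(normalized count + 1), at 5.74 (limma adjusted p = 8.18e-04). Summed over libraries and scaled to depth, 463 reads stood against 6, a ratio of 80.9 with a 95% interval of 36.9 to 222 that covers counting error only (exact binomial).

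IL13RA1, which signals with IL4R, had a small difference of the opposite sign. Its values were 12.26, 12.42, 12.03, 12.32 and 12.16 in donors 1 to 5 in the PF group, and 11.60, 11.67, 11.67, 12.27 and 11.60 in the IL-1β + PF group. It was lower in 5 of 5 donors, but in donor 4 by only 0.05, and that library alone made the groups overlap. The log2 fold change was -0.47 (SE 0.14, 95% interval -0.77 to -0.17, limma adjusted p = 0.0384), under the minimum fold change. Without the IL-1β library of donor 4 it was -0.60 (limma adjusted p = 0.00243). Leaving out a library or a donor gave adjusted p-values between 0.00243 and 0.175, and 3 of these 15 fits kept it below 0.05.

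**Figure D2:**
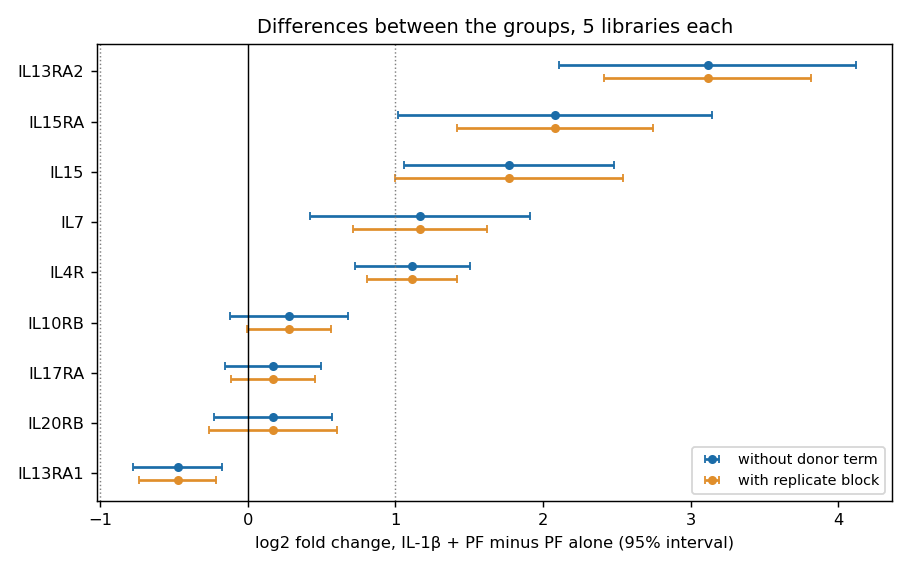
Log2 fold change of the 9 tested genes of the IL-1β + PF group over the PF group (horizontal axis) with 95% intervals from limma, without a donor term (blue) and with the donor as a replicate block (orange); dotted lines mark the minimum fold change of 1. The block narrowed the interval of IL7 from 0.42 to 1.91 to 0.71 to 1.62, and the intervals of IL10RB, IL17RA and IL20RB included 0 in both fits.

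The difference between chains was also taken within each library for 5 pairs of partner genes. Its level depends on the lengths of both genes. Its change between the groups depends on read number too, because the transformation compresses the change of a gene with few reads. IL4R minus IL13RA1 was 0.55, 0.75, 0.58, 0.54 and 0.66 on the log2 scale in donors 1 to 5 in the PF group, and 2.40, 2.50, 1.87, 1.39 and 2.87 in the IL-1β + PF group. The balance moved towards IL4R by 1.59 (p = 0.00794 by an exact two-sided permutation test, which is the lowest p possible with 5 libraries a group, and 0.0198 adjusted over 5 pairs), in 5 of 5 donors. IL13RA2 minus IL13RA1 was -8.52 ± 0.43 (SD, n = 5) and -4.93 ± 0.93 (SD, n = 5) in the groups. This difference of 3.59 also had p = 0.00794 in the exact permutation test and 0.0198 after adjustment, and was in the same direction in 5 of 5 donors. It is made up of the changes of IL13RA2 (3.12) and IL13RA1 (-0.47) given above. IL13RA2 was at 0 reads in donors 1, 2 and 3 of the PF group. Both differences restate changes of single genes and are not separate support. The permutation test does not use the pairing by donor. The paired exact sign-flip test over 5 donors cannot go below p = 0.0625, and gave an adjusted p of 0.104 for both differences. In the pair of IL7 and IL7R the receptor chain was at 0 reads throughout, so that difference is the change of IL7 itself (1.17, exact permutation p = 0.0159, adjusted 0.0265).

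**Figure D3:**
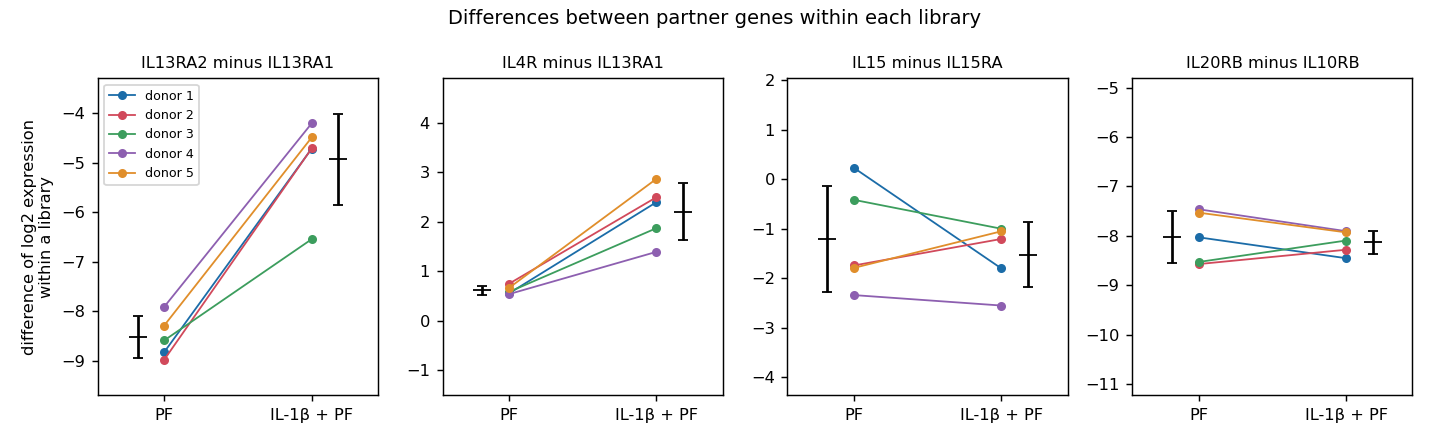
Difference of log2 expression between partner genes within each library (vertical axis, each panel with the same span), with the libraries of 1 donor joined by a line; black bars are the group mean and SD (n = 5). IL13RA2 minus IL13RA1 and IL4R minus IL13RA1 rose in all 5 donors without overlap, while IL15 minus IL15RA and IL20RB minus IL10RB were higher in 2 donors and lower in 3.

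IL15 and IL15RA, the cytokine and the chain that presents it, both rose. IL15 was at 5.61, 5.10, 5.24, 4.52 and 4.56 in donors 1 to 5 in the PF group and at 6.01, 7.25, 6.84, 7.44 and 6.35 in the IL-1β + PF group. The groups did not overlap, although donor 1 rose by only 0.40 while donor 4 rose by 2.92. The mean went from 5.00 ± 0.47 (SD, n = 5) to 6.78 ± 0.60 (SD, n = 5), or by 1.77 (SE 0.32, limma adjusted p = 0.00473). Behind them were 6 to 26 estimated reads per library in the first group and 36 to 116 in the second, and the mean normalized count rose 6.18-fold.

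IL15RA was at 5.38, 6.84, 5.66, 6.86 and 6.35 in donors 1 to 5 in the PF group and at 7.81, 8.45, 7.84, 9.99 and 7.40 in the IL-1β + PF group. Again the groups did not overlap, and donor 4 stood highest, with 708 estimated reads against 128 to 291 in the other donors with IL-1β. The log2 fold change was 2.08 (SE 0.48, limma adjusted p = 0.0148). Without donor 1 the adjusted p was 0.0607 and without donor 2 it was 0.0514, at log2 fold changes of 1.99 and 2.20. With the donor as a replicate block the adjusted p over all 5 donors was 0.00273, and IL15RA was differentially expressed in each of the 5 blocked fits that left out a donor.

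IL15 and IL15RA were not shown to change unequally. IL15 minus IL15RA was -1.21 ± 1.07 (SD, n = 5) and -1.52 ± 0.66 (SD, n = 5), a difference of -0.31 (exact two-sided permutation test, p = 0.548, adjusted 0.683), higher in 2 of 5 donors. The spread of the donors was wide, and in donor 1 IL15RA rose by 2.43 while IL15 rose by 0.40.

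IL7, a growth and survival factor for lymphocytes, was low but present in every library. It was at 4.79, 4.39, 4.50, 5.43 and 4.89 in donors 1 to 5 in the PF group and at 6.21, 5.57, 5.34, 7.09 and 5.63 in the IL-1β + PF group, which are 4 to 22 and 19 to 82 estimated reads. Each donor rose, by between 0.74 and 1.66, while the groups overlapped because donor 4 was high and donor 3 low in both. The log2 fold change was 1.17 (SE 0.34, limma adjusted p = 0.0398), and 1.94 as log2(normalized count + 1).

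The call of IL7 rested on all libraries when donors were not paired. It was kept in 3 of the 15 fits with a library or donor removed, namely those without donor 4 in the PF group, without donor 3 with IL-1β, and without both libraries of donor 4, and adjusted p-values of the 15 lay between 0.0232 and 0.153. With the replicate block its adjusted p was 0.00574, and it stayed differentially expressed in 5 of 5 blocked fits that left out a donor.

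IL7R, the receptor chain for IL-7, was at 0 reads in all 10 libraries. A count of 0 allows up to 3 reads per library, for counting error only. IL7R also pairs with CRLF2 to form the receptor for TSLP, a cytokine related to IL-7.

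IL10RB was high in every library and its groups overlapped. Its values were 12.28, 12.86, 12.46, 11.81 and 12.29 in donors 1 to 5 in the PF group and 12.86, 12.62, 12.80, 12.25 and 12.58 in the IL-1β + PF group. It was higher in 4 of 5 donors and lower in donor 2, with a log2 fold change of 0.28 (95% interval -0.12 to 0.68, limma adjusted p = 0.337).

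IL17RA was between 10.38 and 10.87 in the PF group and between 10.28 and 11.03 in the IL-1β + PF group, higher in 3 donors and lower in 2. Its log2 fold change was 0.17 (95% interval -0.15 to 0.50, limma adjusted p = 0.480). For IL10RB and IL17RA, with more than 860 estimated reads in every library, the intervals leave room for changes of up to 0.68 and 0.50. With the donor as a replicate block the intervals were -0.0052 to 0.57 and -0.11 to 0.46, at limma adjusted p-values of 0.145 and 0.348.

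IL20RB was near the limit of detection, with 1 to 9 estimated reads in the PF group and 3 to 8 in the IL-1β + PF group. Its log2 fold change was 0.17 (95% interval -0.22 to 0.57, limma adjusted p = 0.578). Its difference from IL10RB within a library changed by -0.11 (exact two-sided permutation test, p = 0.683, adjusted 0.683).

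The donors differed as much as the treatments for some of these genes. Treatment took 82.1% of the sum of squares of IL13RA2, 80.9% of IL4R and 77.3% of IL15, against 13.4%, 13.5% and 6.09% between donors. For IL7 donors took 38.9% and treatment 56.2%, for IL15RA 28.1% and 64.4%. For IL10RB and IL17RA the donors took most, at 60.8% and 53.9%, and treatment 19.7% and 13.3%.

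Donor 4 stood out in the IL-1β + PF group. It had the highest value of the 5 donors for 5 of the 9 genes (IL7, IL15, IL15RA, IL13RA1 and IL13RA2) and the lowest for IL10RB and IL17RA. On the deposited log2 scale it had the largest rise in 4 of the 5 genes that rose and the smallest in IL4R, where donor 5 had the largest. On the scale of log2(normalized count + 1), which compresses low values less, donor 4 had the largest rise in 2 of them (IL15 and IL15RA), while donor 2 had the largest in IL7 and IL13RA2 and donor 5 in IL4R. Without both libraries of donor 4 the 5 genes were still differentially expressed, with log2 fold changes of 2.98 for IL13RA2, 1.82 for IL15RA, 1.48 for IL15, 1.19 for IL4R and 1.04 for IL7.

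Of 64 further genes in the table, chosen by receptor family and signalling role, 14 had 0 reads in all libraries and 40 could be tested. Of these, 5 were higher and 2 lower in the IL-1β + PF group, with a median log2 fold change of 0.09 against -0.01 over all tested genes and 6.68% of all tested genes called. IL4, the ligand of IL4R, had 0 reads in every library, and IL13 had at most 2 estimated reads in any. IL2RB, needed with the common gamma chain to receive IL-15, had at most 1 read, and the common gamma chain IL2RG itself had 2 to 15 reads, with a log2 fold change of 0.09 (limma adjusted p = 0.847). IL17A had none, and IL17F at most 1.

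Among 7 tested relatives that use or resemble the common gamma chain receptors, 3 rose and 0 fell, against 3.11% and 3.57% of all tested genes. TSLP, a cytokine of barrier and stromal cells, was at 3.43, 4.69, 4.69, 4.20 and 4.18 in donors 1 to 5 in the PF group and at 8.60, 7.22, 7.55, 5.18 and 7.52 in the IL-1β + PF group, a log2 fold change of 2.97 (limma adjusted p = 0.00430). Here donor 1 was highest with IL-1β and donor 4 lowest, with 300 and 13 estimated reads. CRLF2, the TSLP-binding receptor chain, had 1 to 9 estimated reads in the PF group and 8 to 183 in the IL-1β + PF group, a log2 fold change of 2.29 (limma adjusted p = 0.00969, and 0.0644 without donor 1). It was higher in 5 of 5 donors, again least in donor 4, so a cytokine and 1 chain of its receptor rose while the other chain, IL7R, had no reads. IL21R, the receptor chain for IL-21, had a log2 fold change of 1.26 (limma adjusted p = 0.00800), from 340 to 608 estimated reads per library to 660 to 1855, and IL21 itself had none.

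Of 4 tested genes of the IL-10 family, 0 were differentially expressed by limma. Without a minimum fold change 1 of them, IL10, passed as higher (0.73, limma adjusted p = 0.0258), as did 7.57% of all tested genes. IL10 had 0 reads in all libraries in the PF group and at most 7 in the IL-1β + PF group, and entered the test through the second group alone. Against 3.57% of all tested genes, 1 of 5 tested IL-17 family genes was lower. This was IL17RE, which pairs with IL17RA to bind IL-17C, at 6.32, 7.10, 6.14, 7.03 and 7.52 in donors 1 to 5 in the PF group and at 5.49, 5.69, 5.40, 5.15 and 5.75 in the IL-1β + PF group. The groups did not overlap, and the log2 fold change was -1.33 (limma adjusted p = 0.00942). IL17RC, the usual partner of IL17RA, had a log2 fold change of -0.07 (limma adjusted p = 0.794).

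Of 4 tested IL-12 family genes, 1 was higher, against 3.11% of all tested genes. IL12A had a log2 fold change of 1.07 at an adjusted p of 0.0495 from limma, and kept the call in 1 of the 15 fits with a library or donor removed, the one without donor 3 with IL-1β (1.20, adjusted p = 0.0375). Without the IL-1β library of donor 2, which had 155 estimated reads against 32 to 46 in the other donors, it was 0.76 (adjusted p = 0.0530).

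**Figure D4:**
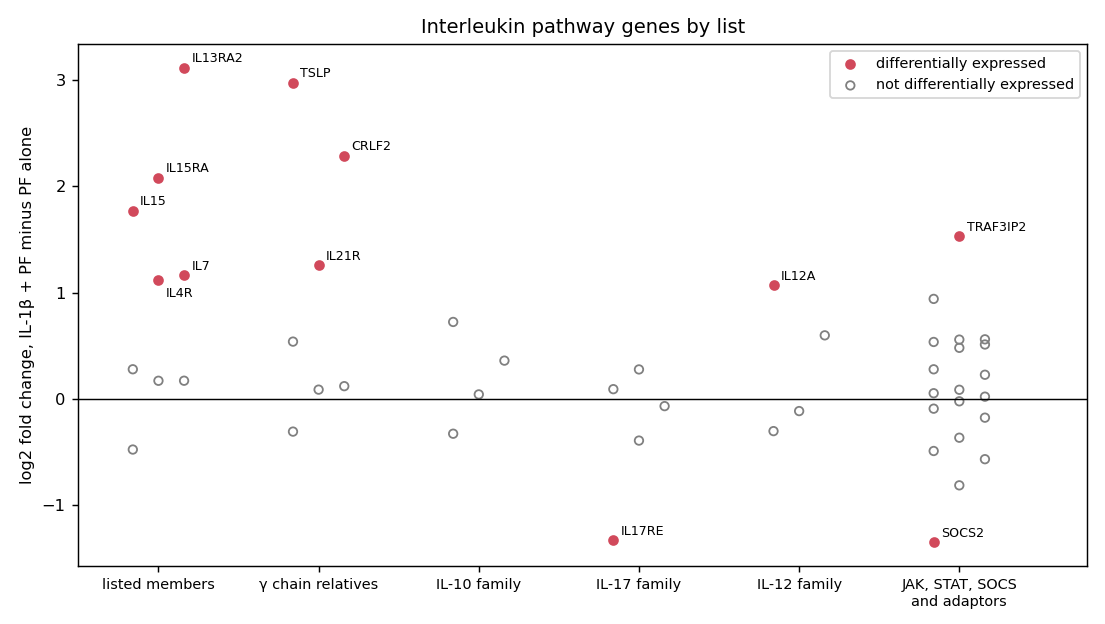
Log2 fold change of the IL-1β + PF group over the PF group (vertical axis) of the tested genes of each list (horizontal axis; points are shifted sideways to separate them), with differentially expressed genes in red and named. In the lists other than the 9 genes of the report, 5 of 40 genes were higher and 2 lower, against 3.11% and 3.57% of all tested genes.

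Of 20 kinases, STAT, SOCS and adaptor genes that act behind these receptors, 1 was higher and 1 lower, and 18 were not differentially expressed. This is 10% of the 20, near the 6.68% of all tested genes (3.11% higher and 3.57% lower). TRAF3IP2, which encodes the adaptor Act1 that IL-17 receptors need to signal, was at 9.82, 9.51, 10.04, 9.17 and 9.38 in donors 1 to 5 in the PF group and at 11.25, 11.25, 10.86, 11.35 and 10.86 in the IL-1β + PF group. The groups were well apart, with a log2 fold change of 1.53 (SE 0.17, limma adjusted p = 3.86e-04), while IL17RA did not pass the test. SOCS2, a feedback inhibitor of cytokine receptors, had a log2 fold change of -1.34 (limma adjusted p = 0.00184) and was lower in 5 of 5 donors.

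STAT6, which transmits IL-4 and IL-13 signals, had a log2 fold change of 0.28 (limma adjusted p = 0.117). JAK1 and TYK2, kinases bound to these receptors, had log2 fold changes of 0.02 and -0.02, and JAK3, the kinase of the common gamma chain, had 9 to 61 estimated reads per library and a log2 fold change of 0.09 (limma adjusted p = 0.889). Without a minimum fold change, and against 7.57% higher and 7.89% lower among all tested genes, SOCS3 (0.54) and TRAF3 (0.48) also passed as higher, and PIK3R1 (-0.81), STAT3 (-0.49) and PTPN11 (-0.36) as lower, at limma adjusted p-values of 0.0134 to 0.0232.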

How the data were processed

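Bulk RNA-seq libraries of 5 tenocyte lines in 2 groups were analysed. The authors checked reads with FastQC (version 0.11.9), assigned them to EquCab3.0 transcripts with Salmon (version 1.8, GC-bias correction) and tested genes with DESeq2 (version 1.36). The deposited table holds log2 values normalized between libraries. Their shared lowest value (3.43) was read as variance stabilization at 0 reads, and estimated counts come from its inversion, with 62.7% to 82.7% of low values within 0.15 of a whole read. Gene positions and sequences are not reported, and a planned promoter search was not run.

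The 17992 genes above the lowest value in 5 or more libraries entered limma (3.58.1, in R 4.3.3), which used a mean-variance trend. The study's methods name no donor term, so none was used, and a second fit took the donor as a replicate block. Each donor is 1 tenocyte line present in both groups, and deviations from group means correlated by 0.37 to 0.51 across genes within the 5 pairs. Partner genes were compared by exact permutation. The fit was tested on simulated data without a donor effect, in which no gene with a low mean count was changed. That test therefore does not cover changes in genes with few reads. The genes and lists were chosen with earlier results of these data known. Some genes of the lists are not reported here, and the counts leave them out. From the lists, all differentially expressed genes were named (at most 6 per list, by adjusted p), with genes whose low level a sentence needs. STAT6, JAK1, TYK2, IL17RC, SOCS3, TRAF3, PIK3R1, STAT3 and PTPN11 were added after their values were seen. Alternatives covered scale, filter, normalization, variance model, thresholds and leaving out libraries or donors, and the blocked fits without a donor were added after seeing the data.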

Additional observations from a re-analysis of the deposited data

Results flagged for a closer look

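Libraries that stood apart from the rest of their group were seen in 2 of 32 sets of 5 values, and about 1.6 (1 in 20) come by chance alone. For IL13RA1 this was donor 4 of the IL-1β + PF group, at 12.27 on the log2 scale when the others had 11.60 to 11.67. For SOCS2 it was donor 1 of the same group, at 10.66 when the others had 10.02 to 10.15.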

How the results depend on the processing

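All 16 tested genes (the 9 genes and the 7 called from the lists) kept their direction in each alternative that tested them, and 7 of the 12 differentially expressed ones kept that call throughout (IL15, IL13RA2, TSLP, IL21R, IL17RE, TRAF3IP2 and SOCS2). IL7, IL15RA, IL4R, CRLF2 and IL12A lost it under at least 1 alternative. IL13RA2 and TSLP could not be tested with the filter that asks for reads in all libraries. Apart from COL1A1 and COL1A2, the replicate block changed no call of a named gene. Thresholds act by construction and leaving out libraries reduces their number. For the other changes the cause was not tested.

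At an adjusted p below 0.01, 3 of the 9 genes were higher (IL13RA2, IL15 and IL4R), and 719 of all genes were differentially expressed (345 higher, 374 lower). With no minimum fold change, 1 of the 9 genes was lower (IL13RA1), of the further pathway genes 8 were higher and 5 lower, and 2782 of all genes passed (1362 higher, 1420 lower). With log2(normalized count + 1) and the replicate block, at the minimum fold change of 1, 1809 of all genes were differentially expressed (891 higher). Leaving out a library or a donor gave 3 to 5 of the 9 genes higher and 0 lower, 3 to 5 of the pathway genes higher, and 762 to 1422 of all genes (356 to 647 higher, 389 to 775 lower).

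Between partner genes, with the sign-flip test over 5 donors (the replicate block), which cannot go below 0.0625, the differences of 3.59, 1.59 and 1.17 had an adjusted p of 0.104. The sign turned for pairs that had not passed the test. IL15 minus IL15RA was 0.18 and IL20RB minus IL10RB 0.20 with log2(normalized count + 1). Leaving out each library gave -0.59 to 0.051 for the first (above 0 without donor 1 of the PF group) and -0.24 to 0.032 for the second (above 0 without donor 4 or donor 5 of that group). IL7 minus IL7R gave 0.89 to 1.32, with an adjusted p of 0.0529 without donor 2 or donor 3 of the PF group. IL20RB, IL7 and, in the PF group, IL13RA2 rest on few reads, which limits the precision of their values.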

Other observations

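For each of the 5 genes that rose, the 3 genes with the most similar values over the 10 libraries were searched among 13856 tested genes with a symbol. Since both groups enter, a shared difference between groups raises these correlations, and they carry no test. IL15RA was most like PSMB9, a subunit of the immunoproteasome (r = 0.99), SLC15A3 and the adhesion molecule ICAM1 (both r = 0.98), whose own log2 fold changes were 2.30, 1.74 and 1.87. IL4R was most like ADAM8 (r = 0.99), TMBIM1 and the adenosine receptor ADORA2B (both r = 0.98). IL13RA2 was most like SPRY3, the proteasome activator PSME1 and a gene listed as IL1B_1 (each r = 0.98). IL15 was most like ADAM10, USP6NL and KDM5B (each r = 0.95), and IL7 most like SLC16A7 and FOXC1 (both r = 0.95) and PKNOX2 (r = 0.94).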
